A study of Sus scrofa with 15 samples.

Results

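The S100 genes encode small calcium-binding proteins, and 10 of them were followed here across 15 RNA-sequencing libraries of IPEC-J2 cells, an epithelial line from the small intestine of a newborn pig. The 10 members were found by their NCBI Gene numbers, and all 10 have a row in both deposited tables, which list 19000 and 17001 genes and share 16804. They fall into 3 calgranulins (S100A8, S100A9 and S100A12) and 7 other members (S100A2, S100A4, S100A6, S100A10, S100A11, S100A14 and S100A16). The knockdown table holds 3 groups of 3 libraries, which are Lv133KD, a lentiviral vector against miR-133, Lv143KD, a vector that the sample labels name for miR-143 while the design text gives miR-133 as its target, and the control vector Lv3NC. The overexpression table holds OV143, a lentiviral vector that overexpresses miR-143, and its control vector Lv20NC, with 3 libraries each. Every group therefore carries a vector, and no untransduced cells were analysed here. The sources used here do not say whether a line is 1 clone or a pool, or whether the 3 libraries of a group come from separate cultures, so p-values measure only the spread between these libraries.

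S100 proteins bind calcium through paired EF-hand motifs and mostly work as dimers that change shape and attach to target proteins. S100A8 and S100A9 join into calprotectin, which withholds zinc and manganese from microbes and is abundant in neutrophils and monocytes. S100A12, also called calgranulin C, binds metals too and is a ligand of the receptor RAGE. Epithelia can switch the calgranulins on during inflammation, while most of the other members are steady components of the cytoskeleton and membrane machinery of many cell types.

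All 10 members lie on chromosome 4 of Sscrofa11.1, and no other gene of the RefSeq table overlaps any of them. The calgranulins are neighbours, with S100A8 from 96209670 to 96210603, S100A12 from 96225691 to 96227030 and S100A9 from 96236114 to 96238989. On one side, S100A6 (96098264 to 96099686) ends 109983 bases before S100A8, and S100A4, S100A2, S100A16 and S100A14 follow outward as far as 96027746. On the other side, S100A11 (97233833 to 97239081) starts 994843 bases beyond S100A9, followed by S100A10.

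The cells carried an epithelial profile. All 6 epithelial markers were detected in every group, and their summed level per library was 1383 to 2068 FPKM in the 9 knockdown-design libraries and 1983 to 2784 FPKM in the 6 others. FPKM, fragments per kilobase of transcript and per fixed number of mapped fragments, is a level per length. Each library had 11250 to 11557 genes at 1 FPKM or more. OV143 replicate 2 stood apart by its FPKM sum of 662022, against 518578 to 558042 in the other 5 libraries of its table, and fold changes that it moves by more than 1.5 times are given with and without it. FPKM does not keep the read total, so sequencing depth is unknown. The targeted microRNAs were not analysed here.

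Several S100 genes were among the most abundant transcripts of these cells. The calgranulins S100A8 and S100A9 were not, while the rank of S100A12 depended on the table. Of all FPKM in a library, the 10 members together held 1.51% to 1.95% in the knockdown design and 2.02% to 2.71% in the overexpression design. By mean level, S100A6 ranked 8 among the 11645 genes tested in the knockdown table (3584 ± 245.3 FPKM over 9 libraries, SD) and 4 among the 11506 tested in the overexpression table (5456 ± 1071 FPKM over 6 libraries). S100A2 ranked 20 in both. S100A12, S100A8 and S100A9 ranked 944, 4483 and 5403 in the knockdown table and 204, 2169 and 4203 in the overexpression table. S100A14 was at the other end, at 0.51 to 1.40 FPKM over the 15 libraries. Genes entered a test only if 3 or more libraries of that table reached 1 FPKM, which S100A14 met in the knockdown table with 3 libraries and missed in the overexpression table with 2. The tests below therefore cover 10 members in the knockdown table and 9 in the overexpression table.

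The order of the levels was nearly the same in all 5 groups. S100A6 came first, then S100A2, S100A11, S100A4 and S100A10, and the calgranulins S100A8 and S100A9 came just above S100A14. S100A12 stood seventh, below S100A16, in 4 groups and sixth in OV143, where it passed S100A16. Several neighbours in this order did not differ beyond their spread. The ranges of S100A4 and S100A10 overlapped in every group but Lv3NC, those of S100A2 and S100A11 overlapped in Lv143KD, OV143 and Lv3NC, and those of S100A8 and S100A9 overlapped in Lv143KD and Lv3NC. Those of S100A12 (252.3 to 286.6 FPKM) and S100A16 (240.0 to 318.6 FPKM) overlapped in Lv20NC, so their order there was not resolved.

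**Figure D1:**
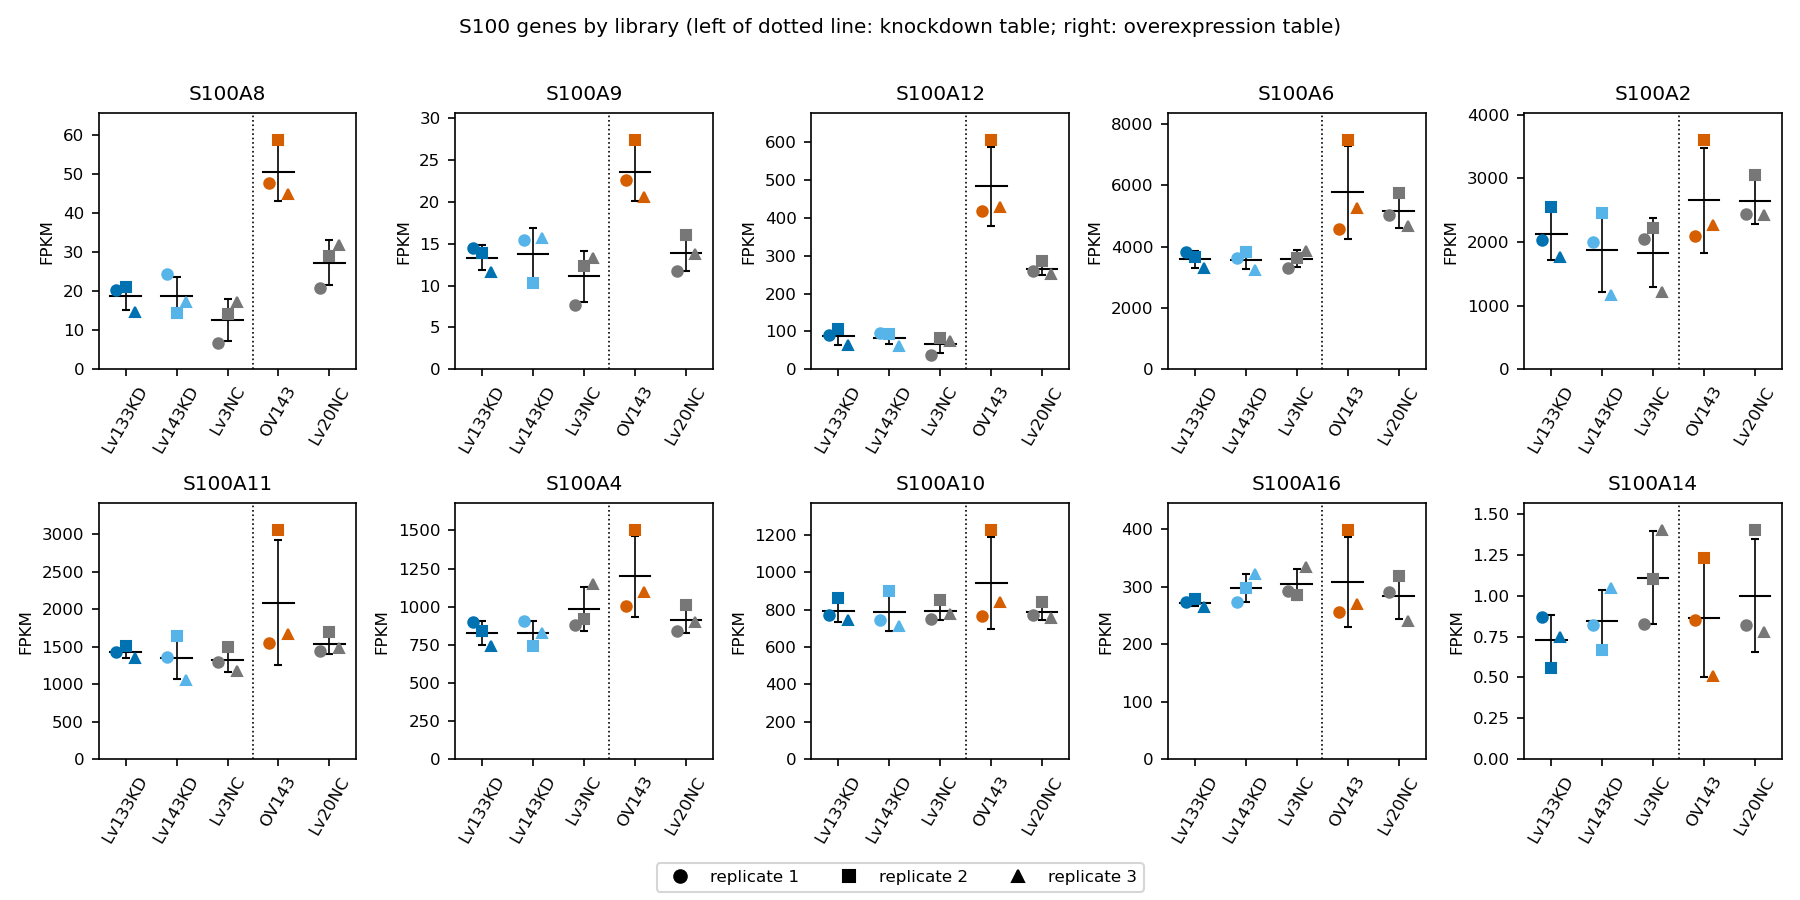
FPKM of the 10 S100 genes in each library (vertical axes, linear from 0) for the 5 vector groups, with replicate numbers as symbols, the mean as a line and the SD as a bar. All 3 calgranulins are higher in each OV143 library than in any Lv20NC library, while every other panel shows overlapping groups in the overexpression table, with OV143 replicate 2 on top in all but S100A14.

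The first question was what miR-143 overexpression did to the calgranulins. S100A12 had 417.5, 605.0 and 427.9 FPKM in the OV143 libraries numbered 1 to 3, against 258.9, 286.6 and 252.3 FPKM in the Lv20NC libraries. S100A8 had 47.9, 58.6 and 44.9 FPKM in OV143, against 20.8, 29.1 and 31.9 FPKM in Lv20NC. S100A9 had 22.6, 27.4 and 20.7 FPKM in OV143, against 11.8, 16.1 and 13.7 FPKM in Lv20NC. For each of these 3 genes the lowest OV143 library lay above the highest Lv20NC library, a separation seen upward in 8.96% of all tested genes and in either direction in 21.9%. The means were 483.5 ± 105.4 against 265.9 ± 18.2 FPKM for S100A12, 50.5 ± 7.24 against 27.2 ± 5.74 FPKM for S100A8 and 23.6 ± 3.45 against 13.9 ± 2.14 FPKM for S100A9 (OV143 first, SD, n = 3 each).

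On the scale of log2(FPKM + 1), which slightly understates the change of low genes, the fold changes of OV143 over Lv20NC were 0.88 for S100A8 (SE 0.18, 95% interval 0.46 to 1.29), 0.84 for S100A12 (SE 0.16, 0.46 to 1.22) and 0.73 for S100A9 (SE 0.15, 0.38 to 1.07), that is 1.84-fold, 1.79-fold and 1.65-fold. Among the 11506 fold changes these ranked 11, 13 and 33 from the highest. The call depended on how the replicate numbers were treated. Without a replicate block, limma gave adjusted p = 0.163, 0.158 and 0.172 for S100A8, S100A12 and S100A9, and no gene of the table passed the threshold of 0.05, although 11.3% of genes had an unadjusted p under 0.05, 4.43% upward, among them these 3 members. With the replicate number as a block, all 3 calgranulins rose (adjusted p = 0.0130, 0.00802 and 0.0120), and 1.94% of all tested genes were called, 0.643% upward. None of the 6 other tested members passed in either of these fits.

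Leaving out OV143 replicate 2 lowered the fold changes of the calgranulins to 0.77 for S100A8, 0.67 for S100A12 and 0.62 for S100A9. All 3 then passed without the block (limma adjusted p = 0.0146, 0.00183 and 0.0146), in a fit that called 4.46% of all genes. OV143 replicate 2 was the highest library for each of the 3, so leaving it out could not make the groups overlap. Leaving out any other single library without the block called 0 genes with limma, while 608 to 1351 genes, among them 3 or 4 members, had an unadjusted p under 0.05. Rescaling each library to the same FPKM sum gave 0.77, 0.73 and 0.63 and moved the median of all tested genes to -0.13, and with the block S100A8 and S100A12 still passed (adjusted p = 0.0441 and 0.0117) while S100A9 missed (0.0507), in a fit that called 1.22% of genes. Quantile normalization alone called S100A12 (log2 fold change 0.76, adjusted p = 0.0325) and 0.0521% of genes, and the block combined with it or with a pseudocount of 0.1 called all 3 calgranulins and 2.23% or 1.62% of genes. Leaving replicate number 1, 2 or 3 out of the blocked fit called all 3 each time, among 6.13%, 12.7% and 2.58% of genes. With number 2 left out S100A4 (0.27) and S100A2 (-0.16) were called as well. Each of these fits without a replicate number has 1 residual degree of freedom per gene, so its p-values rest mostly on the variance trend.

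The other members gave smaller differences in OV143, and OV143 replicate 2 was the highest library of each of the 9 tested members. S100A6, or calcyclin, had 4568, 7465 and 5268 FPKM in OV143, against 5021, 5740 and 4675 FPKM in Lv20NC (log2 fold change 0.14, 95% interval -0.37 to 0.65, or -0.06 without OV143 replicate 2). S100A4, which binds non-muscle myosin and is linked to cell motility, had 1002, 1500 and 1096 FPKM in OV143, against 839.0, 1008 and 896.0 FPKM in Lv20NC. The 2 groups overlapped by a narrow margin, and the log2 fold change was 0.37 (-0.04 to 0.79, adjusted p = 0.481 without and 0.126 with the block). It was 0.20 without OV143 replicate 2 and 0.09 with quantile normalization. S100A11, a partner of annexin A1, had 1544, 3049 and 1668 FPKM in OV143, against 1437, 1692 and 1481 FPKM in Lv20NC, and its log2 fold change was 0.37 (-0.24 to 0.98), or 0.07 without OV143 replicate 2. S100A2, a gene of stratified epithelia that p53 can activate, had 2101, 3598 and 2266 FPKM in OV143, against 2438, 3058 and 2428 FPKM in Lv20NC. Its log2 fold change was -0.03 (-0.57 to 0.51), or -0.27 without OV143 replicate 2, which leaves room for a change in either direction. S100A10, the light chain of the annexin A2 complex, had a log2 fold change of 0.23 (-0.21 to 0.67), or 0.03 without OV143 replicate 2. S100A16 had one of 0.10 (-0.35 to 0.56), or -0.10 without that library. The median over the 9 tested members was 0.37, against -0.02 over all tested genes, and it rested on that library: without it the median was 0.07, and with quantile normalization 0.09.

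**Figure D2:**
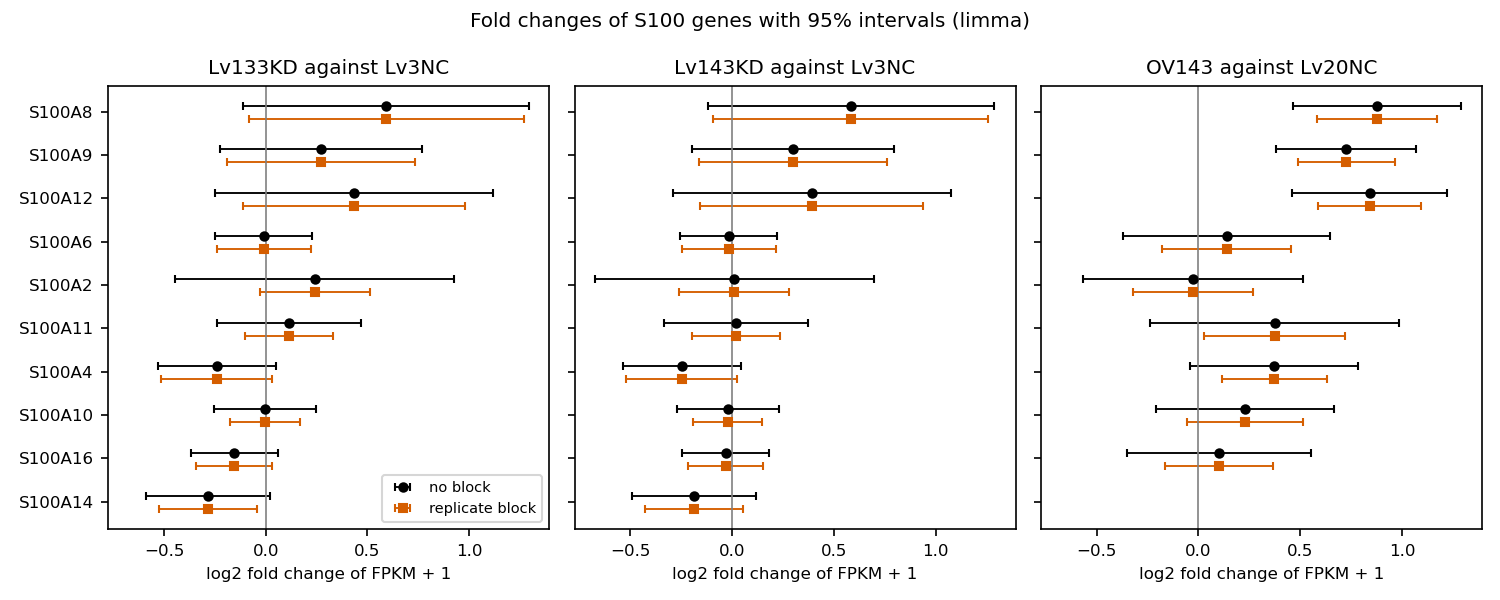
Log2 fold change of FPKM + 1 (horizontal axis) of each S100 gene in 3 comparisons, with limma 95% intervals without a replicate block (circles) and with it (squares). The calgranulins sit between 0.73 and 0.88 in OV143 with both intervals above 0, while in the 2 knockdown groups the intervals of all 3 span 0 and S100A14 was not tested in OV143.

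A ratio within a library does not depend on how that library was scaled. Per 1000 FPKM of S100A6, S100A12 stood at 91.4, 81.1 and 81.2 FPKM in OV143, against 51.6, 49.9 and 54.0 FPKM in Lv20NC. S100A8 stood at 7.86 to 10.5 per 1000 in OV143 and 4.15 to 6.81 in Lv20NC, and S100A9 at 3.67 to 4.96 in OV143 and 2.35 to 2.94 in Lv20NC. None of these ranges overlapped, and OV143 replicate 2, highest in FPKM, was the lowest of its group by each ratio. The calgranulins were already separated in FPKM, and the share of all genes separated by such a ratio was not counted. The calgranulins made up 3.86% to 4.55% of the summed FPKM of the 10 members in OV143 and 2.55% to 2.77% in Lv20NC. The proportions among the calgranulins were close to each other in the 2 groups, with an S100A12 to S100A8 ratio of 9.53 ± 0.796 in OV143 and 10.1 ± 2.26 in Lv20NC, and an S100A8 to S100A9 ratio of 2.14 ± 0.0296 in OV143 and 1.97 ± 0.306 in Lv20NC (SD, n = 3 each).

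**Figure D3:**
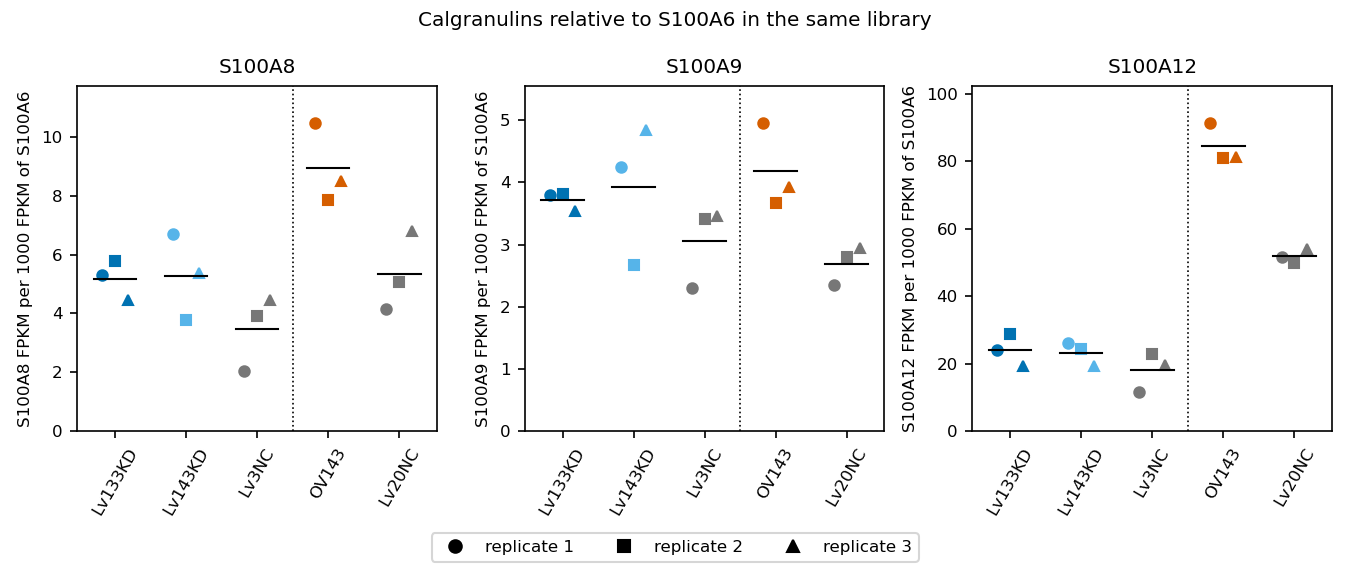
FPKM of S100A8, S100A9 and S100A12 per 1000 FPKM of S100A6 in the same library (vertical axes from 0) for the 5 vector groups, with the group mean as a line. S100A12 lies at 81.1 to 91.4 in OV143, 49.9 to 54.0 in Lv20NC and 11.7 to 28.8 in the 9 knockdown-table libraries.

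The knockdown vectors were compared with Lv3NC in the same way, and no S100 member passed the threshold in either. S100A8 had 20.2, 21.1 and 14.7 FPKM in Lv133KD and 24.3, 14.5 and 17.3 FPKM in Lv143KD, against 6.72, 14.2 and 17.2 FPKM in Lv3NC. S100A12 had 91.1, 105.0 and 63.2 FPKM in Lv133KD and 94.9, 93.1 and 62.5 FPKM in Lv143KD, against 38.6, 82.9 and 75.5 FPKM in Lv3NC. S100A9 had 14.5, 13.9 and 11.6 FPKM in Lv133KD and 15.5, 10.3 and 15.7 FPKM in Lv143KD, against 7.62, 12.4 and 13.3 FPKM in Lv3NC. The groups overlapped for all 3 in both comparisons, and Lv3NC replicate 1 was the lowest of the 9 libraries for each.

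The fold changes of S100A8, S100A12 and S100A9 over Lv3NC were 0.59, 0.43 and 0.27 on the log2 scale in Lv133KD (limma adjusted p = 0.926 for each) and 0.58, 0.39 and 0.30 in Lv143KD (adjusted p = 1.00 for each). The 2 comparisons share the Lv3NC libraries. Without Lv3NC replicate 1 the same fold changes were 0.22, 0.10 and 0.04 in Lv133KD and 0.21, 0.05 and 0.07 in Lv143KD. Over all genes, 0.0172% were called in each comparison without the block, and 0.258% in Lv133KD and 0.172% in Lv143KD with it. At an unadjusted p under 0.05, limma gave 0 members without the block in both comparisons, where 3.26% of all genes in Lv133KD and 1.79% in Lv143KD reached that level. Their 95% intervals were wide, from -0.11 to 1.30 for S100A8 in Lv133KD and from -0.12 to 1.29 in Lv143KD, so the S100A8 fold change measured in OV143 lies inside both.

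Among the other members in the knockdown table, S100A16 was the only one whose groups did not overlap, with 273.8, 277.8 and 265.2 FPKM in Lv133KD, against 292.7, 284.8 and 334.6 FPKM in Lv3NC. Its log2 fold change was -0.16 (adjusted p = 0.926), and 8.02% of all tested genes were separated in either direction in this comparison. No member was separated in Lv143KD, where 4.14% of genes were. S100A4 had 897.8, 841.7 and 744.3 FPKM in Lv133KD and 903.7, 742.6 and 826.7 FPKM in Lv143KD, against 878.7, 919.9 and 1148 FPKM in Lv3NC. The highest value was that of Lv3NC replicate 3, and the log2 fold changes of -0.24 and -0.25 did not pass (adjusted p = 0.926 and 1.00). S100A6 stood close to its control, with 3582 ± 268.6 FPKM in Lv133KD and 3566 ± 303.4 FPKM in Lv143KD, against 3605 ± 274.5 FPKM in Lv3NC, and intervals of -0.25 to 0.23 and -0.26 to 0.22 on the log2 scale. S100A10 had intervals of -0.25 to 0.25 in Lv133KD and -0.27 to 0.23 in Lv143KD. Lv133KD was also set directly against Lv143KD, where the 10 fold changes lay between -0.12 and 0.23 and 0 members and 0.129% of all genes had an unadjusted p under 0.05 with limma. No member was separated between these groups, against 2.66% of genes. No gene passed the adjusted threshold there, with or without the block.

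Within the knockdown table some members lined up by replicate number. S100A2 had 2550, 2450 and 2226 FPKM in the libraries numbered 2 of Lv133KD, Lv143KD and Lv3NC, 2037, 1993 and 2054 FPKM in those numbered 1, and 1770, 1163 and 1216 FPKM in those numbered 3. The libraries numbered 2 were above the other 6, and those numbered 3 below the other 6, a position that 5.95% of tested genes shared. S100A11 had 1511, 1640 and 1498 FPKM in the libraries numbered 2 and 1061 to 1422 FPKM in the other 6. S100A10 had 859.4, 897.6 and 849.7 FPKM in the libraries numbered 2, again above the other 6 at 710.0 to 777.6 FPKM. These 3 members shared the pattern with 12.1% of all tested genes. In the overexpression table both libraries numbered 2 were above the other 4 for S100A2, S100A6, S100A11 and S100A16, as for 22.2% of tested genes. The labels do not say what a replicate number marks. None of the calgranulins followed the replicate number in the knockdown table. Their highest library there was Lv143KD replicate 1 for S100A8, Lv133KD replicate 2 for S100A12 and Lv143KD replicate 3 for S100A9. In the overexpression table every OV143 library lay above every Lv20NC library for these genes, so both libraries numbered 2 could not be on top. Within each group there, the library numbered 2 was highest for S100A12 (605.0 FPKM in OV143 and 286.6 in Lv20NC) and S100A9 (27.4 and 16.1). For S100A8 it was highest in OV143 only.

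Across the 2 tables, which were normalised separately and between which no test was made, S100A12 differed in level. Its group means were 483.5 FPKM in OV143, 265.9 in Lv20NC, 86.4 in Lv133KD, 83.5 in Lv143KD and 65.7 in Lv3NC. The ranges of OV143, Lv20NC and the knockdown-table groups did not meet, and those within the knockdown table overlapped. S100A8 and S100A9 in Lv20NC, at 20.8 to 31.9 and 11.8 to 16.1 FPKM, overlapped with the 9 knockdown-design libraries, at 6.72 to 24.3 and 7.62 to 15.7 FPKM. The S100A12 to S100A9 ratio was 17.9 to 22.1 in the 6 libraries of the overexpression table and 3.99 to 9.08 in the 9 of the knockdown table, and the table and the vector system cannot be told apart in this difference.

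Calgranulins mark neutrophils and monocytes, so the markers of those cells were read in the same libraries. Of 12 such markers, PTPRC and FCN1 were at 0 in all 9 libraries of the knockdown table, and 10 of the 12 have a row in the overexpression table. Their summed level was 6.46 to 9.91 FPKM per library in OV143 and 6.13 to 6.63 FPKM in Lv20NC. MPO, the neutrophil peroxidase, was at 0 in OV143 and 0.01 FPKM in Lv20NC, and CSF3R, the receptor for granulocyte colony-stimulating factor, was at 0.04 FPKM in both. LYZ, lysozyme, was at 0.54 to 0.83 FPKM in OV143 and 0.42 to 0.53 FPKM in Lv20NC. These ranges did not overlap, as for 8.96% of tested genes upward in this comparison. LYZ was below the filter, and its highest value was that of OV143 replicate 2. ELANE averaged 0.163 FPKM in OV143 and 0.0667 FPKM in Lv20NC, and TREM1 0.0667 FPKM in OV143 and 0.0233 FPKM in Lv20NC. Over the 6 libraries, ITGB2 (0.43 to 0.57 FPKM) and CSF1R (0.35 to 0.58 FPKM) had their highest value in an Lv20NC library. ITGAM (0.03 to 0.13 FPKM) had its highest in an OV143 library. The 2 markers above 1 FPKM were CD68 (4.56 FPKM in OV143 and 3.49 in Lv20NC) and CD14 (1.61 FPKM in OV143 and 1.30 in Lv20NC), and neither passed with or without the block. CD14 had a log2 fold change of 0.14, or -0.10 without OV143 replicate 2. Of 6 fibroblast markers, COL1A1 was the only one with a group mean of 1 FPKM or more. In bulk RNA, more cells of a type and more RNA per cell cannot be told apart.

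The S100 genes outside the 10 members were measured as a further list of 9, of which 5 were tested in each table. S100A5, S100A13 and S100A3, the most abundant, had log2 fold changes of 0.22, 0.08 and 0.38 in OV143, or 0.0091, -0.11 and 0.10 without OV143 replicate 2, the highest library of each. No gene of the list passed in any comparison, with or without the block. S100A5 stood at 324.4 ± 86.0 FPKM in OV143 and 274.8 ± 38.1 FPKM in Lv20NC, close to S100A16. S100A7, whose human protein psoriasin is an antimicrobial of skin, was at 0.34 ± 0.322 FPKM in OV143 and 0.277 ± 0.479 FPKM in Lv20NC.

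Of 12 partners of S100 proteins, 11 were tested in OV143, and AHNAK, a giant scaffold protein bound by the S100A10 and annexin A2 complex, fell with the block (54.6 ± 9.75 FPKM in OV143 and 77.2 ± 4.66 FPKM in Lv20NC, log2 fold change -0.51, limma adjusted p = 0.0427 with and 0.265 without the block). Without OV143 replicate 2 its log2 fold change was -0.35 and passed without the block (adjusted p = 0.0327). ANXA2 (log2 fold change -0.05, or -0.10 without OV143 replicate 2) had 1449 ± 89.5 FPKM in OV143 and 1504 ± 93.9 FPKM in Lv20NC, ANXA1 had 1433 ± 36.8 FPKM in OV143 and 1326 ± 107.0 FPKM in Lv20NC, and ANXA5 had a log2 fold change of -0.05, or -0.03 without OV143 replicate 2. None of the annexins passed. No partner passed in either knockdown.

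The genes listed as receptors or signalling partners of the calgranulins were unevenly expressed. AGER, which encodes RAGE, and TLR4, the lipopolysaccharide receptor that calprotectin can engage, stayed at or under 0.15 FPKM by group mean in all 5 groups, below the filter. LY96, the co-receptor of TLR4, was at 77.3 ± 12.8 FPKM in OV143 and 55.1 ± 6.09 FPKM in Lv20NC. Its log2 fold change of 0.47 did not pass (adjusted p = 0.0569 with the block and 0.283 without). BSG, a membrane glycoprotein that binds S100A9, was at 179.0 ± 40.4 FPKM in OV143 and 139.3 ± 11.6 FPKM in Lv20NC and did not pass either, with a log2 fold change of 0.34, or 0.16 without OV143 replicate 2. EMP2, which was on the same list but was not examined as a receptor, was at 32.95 to 35.47 FPKM over the 6 libraries of the overexpression table. Its log2 fold change was -0.04 without OV143 replicate 2. Of the 13 receptor and signalling genes, 10 were tested in each table and none passed in any comparison, with or without the block.

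Genes that carry signals known to induce calgranulins were read as a list of transcription factors and cytokine receptors. Of 15 genes, 14 were tested, 3 with a fold change above 0 and 11 below, and none passed with or without the block. The median log2 fold change was -0.17, against -0.02 over all tested genes, and -0.11 without OV143 replicate 2. HIF1A had a log2 fold change of -0.45, or -0.06 without OV143 replicate 2, its lowest library. CEBPB had one of -0.29 and CEBPD one of -0.19, or -0.23 and -0.31 without that library. SPI1, a myeloid transcription factor picked out after its values were seen, had 2.57, 9.30 and 3.22 FPKM in OV143, against 1.72, 1.44 and 1.82 FPKM in Lv20NC, and did not pass (log2 fold change 1.02, adjusted p = 0.0768 with and 0.351 without the block). Its highest value was in OV143 replicate 2, and without that library the log2 fold change was 0.55 and passed (adjusted p = 0.0231).

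Other defence genes of epithelia had fold changes in both directions. In OV143 the chemokine genes CCL20, which attracts lymphocytes and dendritic cells, and CXCL8, which attracts neutrophils, fell with the block. CCL20 had 122.5, 113.9 and 120.1 FPKM in OV143, against 200.5, 217.7 and 199.3 FPKM in Lv20NC (log2 fold change -0.79, SE 0.09, limma adjusted p = 0.00802 with and 0.0762 without the block). CXCL8 had 22.6, 15.7 and 18.2 FPKM in OV143, against 31.7, 32.0 and 28.0 FPKM in Lv20NC (-0.68, SE 0.14, adjusted p = 0.0218 with and 0.176 without). Of the 8 tested genes of this list, 4 had a fold change above 0 and 4 below. SAA3, an acute-phase protein, was at 100.7 ± 18.8 FPKM in OV143 and 84.8 ± 4.56 FPKM in Lv20NC and did not pass (log2 fold change 0.23, or 0.08 without OV143 replicate 2), and CXCL2 had a log2 fold change of -0.32. Without OV143 replicate 2 and without the block, CCL20 (-0.76, adjusted p = 0.000696), CXCL8 (-0.57, adjusted p = 0.0135) and PIGR (-0.40, adjusted p = 0.0499), the receptor that carries antibodies across epithelia, passed. In the knockdown table SLPI, a secreted protease inhibitor picked out after its values were seen, was below Lv3NC in both vectors without overlap, at 34.8, 34.0 and 31.0 FPKM in Lv133KD and 32.6, 36.7 and 25.3 FPKM in Lv143KD, against 52.2, 45.1 and 45.1 FPKM in Lv3NC. It did not pass in either (limma adjusted p = 0.0957 and 0.0711 with the block). LCN2 was also below Lv3NC without overlap (0.79 to 1.34 FPKM in Lv133KD and 0.91 to 1.03 in Lv143KD, against 1.53 to 2.13). LCN2 lay near the filter limit, reaching 1 FPKM in 5 libraries that include all of Lv3NC. It therefore passed the filter only through the group where it was high, and its separation carries no weight. PI3 was above Lv3NC without overlap in Lv133KD (1.45 to 2.35 FPKM, against 1.04 to 1.18). In either direction, 8.02% of tested genes were separated in Lv133KD and 4.14% in Lv143KD.

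**Figure D4:**
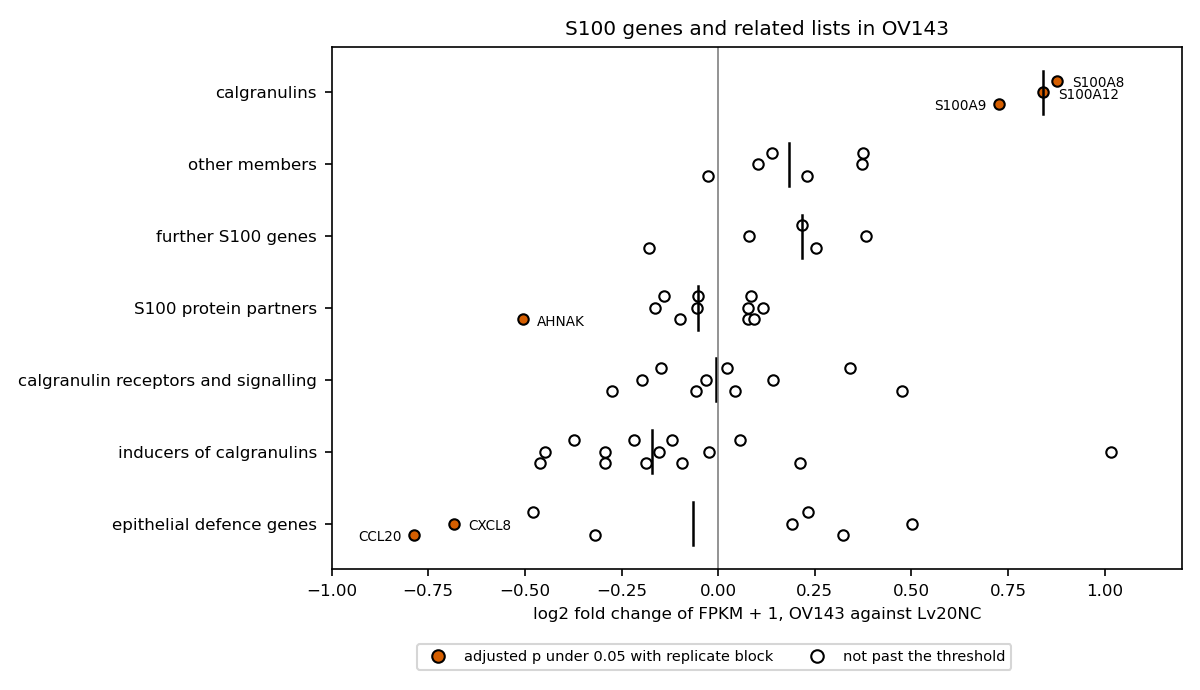
Log2 fold change of FPKM + 1 in OV143 over Lv20NC (horizontal axis) for each tested gene of 7 lists, with the median of each list as a vertical bar and filled points for genes with an adjusted p under 0.05 in the limma fit with the replicate block. The 3 calgranulins and 3 genes on the opposite side, CCL20, CXCL8 and AHNAK, are filled.

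The genes whose pattern was most like that of the calgranulins were ranked by the lower of their correlations with the mean log2 level of the 3 calgranulins in the 2 tables, over 11133 other genes tested in both. The closest was VKORC1, the vitamin K epoxide reductase, with r = 0.82 over 9 libraries and 0.86 over 6. TERB2 (0.79 and 0.83), BMP4 (0.77 and 0.91), SRA1 (0.78 and 0.77) and KIF2C (0.77 and 0.95) followed. TERB2 was close to the filter limit of 1 FPKM, at 1.53 ± 0.297 FPKM in OV143 and 0.86 ± 0.177 FPKM in Lv20NC. It passed the filter there mainly through OV143, so its likeness in that table was partly fixed by the filter. The correlations are descriptions over few libraries that share vectors and replicate numbers. VKORC1 stood at 59.8 ± 19.3 FPKM in OV143 and 42.3 ± 4.44 FPKM in Lv20NC. In the knockdown table it stood at 45.7 ± 5.77 FPKM in Lv133KD and 44.9 ± 3.78 FPKM in Lv143KD, against 41.5 ± 7.24 FPKM in Lv3NC. Means and correlations of these similar genes were not computed without OV143 replicate 2.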

How the data were processed

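RNA-seq of IPEC-J2 cells gave 15 libraries in 5 groups of 3, grouped by sample label. FPKM was deposited by the authors to 2 decimals, in 1 table of 9 libraries and 1 of 6. The submitters' processing notes name the build Sscrofa11.1. The aligner, counting tool and use of strand were not given in the sources used here. Gene numbers were paired with symbols through RefSeq annotation of that build (18618 and 16949 matched), whose coordinates are 1-based. limma 3.58.1 (R 4.3.3, trended variance, two-sided, Benjamini-Hochberg) was run per table on log2(FPKM + 1) over the 11645 and 11506 genes that passed the filter. Calls were made at adjusted p under 0.05. The fit without the block was tested on simulated data with independent noise, for Lv133KD against Lv3NC and OV143 against Lv20NC. Fits with the block were not tested in this way. No libraries held identical values.

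Same-numbered libraries deviated together from their group means (r of 0.27 to 0.85 in 9 pairs and 0.23 to 0.72 in 3 pairs, each over 0.1). Pairs with different numbers had r of -0.87 to 0.38 in 18 pairs and -0.68 to 0.54 in 6 pairs, so the ranges overlapped. OV143 replicate 1 had a higher r with Lv20NC replicate 3 (0.54) than with Lv20NC replicate 1 (0.23), so numbers 1 and 3 were not resolved there. The numbers were treated as pairing the libraries because each same-numbered r was over 0.1. Some pairs with different numbers passed that limit too, such as OV143 replicate 3 with Lv20NC replicate 1 (0.18). The limit therefore cannot show that the numbers pair the libraries, and the block rests on that check alone. The fit without the block was the main one. Where the block altered the call of a named gene in the full fit, values with and without it are given. Genes were named if they were members, passed the threshold, were among the 3 most abundant of a list that had none passing, or were among the 5 most like the calgranulins. The rule on abundance was not applied to the epidermal and cell-type lists. AHNAK, CXCL8, SPI1, SLPI, LCN2, PI3, PIGR, S100A7, AGER, TLR4 and the myeloid and fibroblast markers were named after their values were seen. The members and lists were chosen with earlier results of these data known. Of 13 genes of the epidermal differentiation complex, 1 in the knockdown table and 0 in the overexpression table could be tested, and none was called. Alternatives changed the pseudocount, filter, scaling, groups fitted, block and libraries.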

Additional observations from a re-analysis of the deposited data

How the results depend on the processing

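Every OV143 library lay above every Lv20NC library for each calgranulin. Leaving out libraries, adding the block or changing the pseudocount or filter therefore could not reverse their fold changes. Only rescaled sums and quantile normalization could have done so. The calgranulin fold changes in OV143 kept their direction under every alternative tried, at 0.70 to 1.08 for S100A8, 0.67 to 0.94 for S100A12 and 0.62 to 0.83 for S100A9. Their call did not: of the S100 members, 3 were called with the replicate block, 3 with the block and a pseudocount of 0.1, 3 with the block and quantile normalization, 2 with the block and rescaled sums, 1 with quantile normalization alone, and 0 to 5 when a library or replicate number was left out. Over all genes in OV143 the counts were 223, 186, 257, 140 and 6 under these settings, and 0 to 1466 on leaving out (513 without OV143 replicate 2, and 705, 1466 and 297 in the blocked fit without number 1, 2 or 3). These blocked fits keep 1 residual degree of freedom, so their p-values rest mostly on the variance trend. In Lv133KD the 2 called genes became 30 with the block (30, 34 and 37 with the pseudocount, quantile normalization or rescaled sums added), 1 without the filter, 0 with only the 2 groups compared, and 0 to 72 on leaving out (1, 12 and 72 in the blocked fit). In Lv143KD the 2 genes became 20 with the block (20, 23 and 20), 1 without the filter, 0 with only the 2 groups compared, and 0 to 60 on leaving out. No member was called in a knockdown comparison under any of these settings. Block combinations were chosen after seeing the data.

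Of 29 member fold changes, 15 kept their sign throughout. With rescaled sums, with or without the block, S100A6 was 0.0143 in Lv133KD and 0.00728 in Lv143KD, S100A10 0.0205 and 0.00239, and S100A16 in OV143 -0.0146. With quantile normalization, with or without the block, S100A10 was 0.0593 in Lv133KD and 0.0372 in Lv143KD, S100A16 in Lv143KD 0.00161 and S100A6 in OV143 -0.0312. In the blocked fit without number 1, S100A9 was -0.0146 in Lv133KD and -0.0173 in Lv143KD, S100A12, S100A11 and S100A16 in Lv143KD were -0.0512, -0.0120 and 0.00158, and S100A2 in OV143 was 0.0674. Without number 2, S100A2 and S100A11 in Lv143KD were -0.0538 and -0.0368, and S100A16 in OV143 was -0.00676. Without number 3, S100A6 and S100A10 were 0.102 and 0.0280 in Lv133KD and 0.102 and 0.0335 in Lv143KD, and S100A2 in OV143 was 0.00974.

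Leaving out libraries or numbers in Lv133KD gave ranges of -0.0297 to 0.406 for S100A2, -0.115 to 0.102 for S100A6 (-0.0686 to 0.0512 for single libraries), -0.0637 to 0.0476 for S100A10 and -0.0146 to 0.498 for S100A9. In Lv143KD they were -0.261 to 0.319 for S100A2, -0.0903 to 0.102 for S100A6 (-0.0758 to 0.0518), -0.122 to 0.0467 for S100A10, -0.130 to 0.184 for S100A11, -0.0897 to 0.0390 for S100A16, -0.0512 to 0.721 for S100A12 and -0.0173 to 0.574 for S100A9. In OV143 they were -0.267 to 0.121 for S100A2, -0.0635 to 0.291 for S100A6 and -0.0965 to 0.245 for S100A16 (up to 0.221 for single libraries). The cause was not tested.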
